A study of Rattus norvegicus with 18 samples.

Results

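Hmgcs1, Idi1, Fdft1, Sqle, Cyp51, Insig1 and Srebf2, 7 genes of cholesterol synthesis and its control, were followed in the cerebral cortex of rats after subarachnoid hemorrhage (SAH), a bleed into the space around the brain. They were chosen by gene symbol among the 30735 genes of the count table, and each symbol matched 1 row. All 7 passed the filter on low counts, which left 18444 genes for testing. The cortex came from adult Sprague Dawley rats, for which no genetic change is given, with 6 rats and 6 RNA-seq libraries in each of 3 groups named sham, SAH 1d and SAH 7d. In the SAH groups a nylon filament was passed through the artery to make the bleed, and tissue was taken 1 day or 7 days later. The sham group had the same surgery without the perforation and received no bleed. The day on which sham tissue was taken is not given, so its time after surgery may differ from that of either SAH group. Neither the methods nor the labels give the sex, and 1 sham group served both SAH groups, so their comparisons with sham share its libraries. The methods give the cortex of the operated side, whereas the labels give cortex of both sides.

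Cells build cholesterol from acetyl-CoA through mevalonate, isoprenoid units, squalene and lanosterol. When sterols in the endoplasmic reticulum run low, SCAP carries the transcription factor SREBP2 to the Golgi, where it is cut and released to the nucleus to switch on nearly every enzyme gene of the route, and also Insig1, whose protein holds SCAP back when sterols return. The adult brain makes its own cholesterol, because plasma lipoproteins do not cross the blood-brain barrier, with oligodendrocytes and astrocytes as large producers. In the order of the route, Hmgcs1 encodes the cytosolic HMG-CoA synthase, Idi1 the isomerase of the isoprenoid units, Fdft1 squalene synthase, Sqle squalene epoxidase, and Cyp51 the lanosterol demethylase. Insig1 encodes the sterol-sensing anchor, and Srebf2 encodes SREBP2 itself.

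The stretches upstream of these genes are shown as background, because the genes share a regulator, SREBP2. Its part in their levels in these libraries was not tested. RefSeq promoters of the GRCr8 rat assembly, from 250 bases before to 50 bases after the start of the gene, were at hand for 5 of the 7 genes. The files used another assembly, so these positions apply to GRCr8 only. The promoters of Hmgcs1 (chr2:53382054-53382353, plus strand), Srebf2 (chr7:115543057-115543356, plus strand), Idi1 (chr17:66547475-66547774, minus strand) and Cyp51 (chr4:30991443-30991742, plus strand) are printed 5′ to 3′ in the direction of the gene, with each CCAAT or its reverse complement ATTGG in capitals. Hmgcs1, Srebf2 and Cyp51 are the genes that parted most after SAH, and Idi1 is the gene that varied most among the SAH 1d rats.
Hmgcs1: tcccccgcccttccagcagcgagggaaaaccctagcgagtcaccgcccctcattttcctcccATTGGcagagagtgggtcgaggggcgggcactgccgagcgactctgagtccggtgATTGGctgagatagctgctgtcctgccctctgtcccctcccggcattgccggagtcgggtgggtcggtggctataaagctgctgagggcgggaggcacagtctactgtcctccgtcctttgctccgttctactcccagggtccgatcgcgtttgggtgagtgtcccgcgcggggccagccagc
Srebf2: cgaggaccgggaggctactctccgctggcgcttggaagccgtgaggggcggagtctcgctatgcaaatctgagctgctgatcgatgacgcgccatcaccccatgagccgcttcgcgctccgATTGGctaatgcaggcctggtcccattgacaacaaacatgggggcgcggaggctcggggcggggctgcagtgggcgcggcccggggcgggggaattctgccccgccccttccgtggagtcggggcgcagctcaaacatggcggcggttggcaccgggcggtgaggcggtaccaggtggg
Idi1: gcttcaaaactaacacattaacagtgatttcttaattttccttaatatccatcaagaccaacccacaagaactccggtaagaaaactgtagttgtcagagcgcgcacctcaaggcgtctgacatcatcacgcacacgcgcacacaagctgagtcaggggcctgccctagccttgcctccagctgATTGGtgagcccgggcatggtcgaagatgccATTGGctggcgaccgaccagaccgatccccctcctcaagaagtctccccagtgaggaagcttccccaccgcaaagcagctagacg
Cyp51: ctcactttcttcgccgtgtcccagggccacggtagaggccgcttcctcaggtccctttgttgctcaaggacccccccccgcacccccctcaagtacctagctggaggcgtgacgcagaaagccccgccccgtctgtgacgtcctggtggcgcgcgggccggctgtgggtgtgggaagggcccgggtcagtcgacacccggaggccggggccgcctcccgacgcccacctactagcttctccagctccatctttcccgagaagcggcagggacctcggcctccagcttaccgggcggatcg

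CCAAT, the letters bound by the factor NF-Y, was found on either strand in 4 of the 5 promoters (Hmgcs1, Insig1, Srebf2 and Idi1), against 37.5% of 33469 rat promoters of the same length. Hmgcs1 held it at 188 and 133 bases before the start and Idi1 at 66 and 35 bases before it, and 11.2% of all promoters held 2 or more. The Cyp51 window held none. GGGCGG, the letters of the SP1 box, was found on either strand in 4 of the 5, all but Idi1, against 33.1% of all promoters. The sterol response element in its classical form, of 10 letters, was in none of the 5 windows and in 0.269% of all promoters. Its shorter form TCACNCCAC, which lies inside the classical one, was in none of the 5 and in 1.12% of all. Only exact matches were counted, so an element with a changed letter would be missed, and their absence does not show that a promoter lacks one. These matches describe letters in a window and not binding.

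The 18 libraries held 27270026 to 38271014 counts (median 30711729.5), and the 7 genes had 532 to 22447 counts in each library, so the spread between rats and not the depth sets their precision. Levels are given in CPM, counts per 1e+06 counts of the library, after trimmed mean of M-values (TMM) normalisation. Neuron, astrocyte and oligodendrocyte markers were found in every library, which goes with the tissue label. The libraries SAH 1d-3 and SAH 7d-5 stood apart for these genes, and over the genes tested as well, and are marked in each result. The chi-square per degree of freedom between the counts of a pair of libraries was 141.4 to 166.8 for pairs with SAH 1d-3. The other SAH 1d pairs gave 16.48 to 36.52. Pairs with SAH 7d-5 gave 403 to 518.1, the other SAH 7d pairs 18.24 to 59.89, and pairs with sham-1 52.75 to 134.4. SAH 1d-3 was the highest of its group for 7 of 7 genes and SAH 7d-5 the lowest of its group for 7 of 7, whereas over all genes tested the same libraries held these places for 33.1% and 36.8%. SAH 7d-5 was also the highest of its group for 38.7% of all genes. In bulk tissue, fewer cells of a type and less RNA per cell cannot be told apart.

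Between genes, levels were compared per length, in the FPKM (fragments per kilobase of transcript and mapped reads) of the authors. In the sham group Hmgcs1 was the most abundant, with 152 ± 21.5 FPKM (SD, n = 6). Cyp51 followed with 75.7 ± 10.4 FPKM and did not overlap with Hmgcs1 or with the gene below. Insig1 came next with 46.7 ± 4.27 FPKM, and its range overlapped with that of Fdft1. Fdft1 with 40.5 ± 4.98 FPKM and Sqle with 40.4 ± 5.81 FPKM did not differ beyond their spread. Srebf2 with 27.4 ± 3.83 FPKM and Idi1 with 18.2 ± 3.78 FPKM ended the order, and their ranges overlapped.

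The next results ask which of these genes differed 1 day after SAH. Hmgcs1 and Srebf2 fell, the first to 0.678 of the sham level and the second to 0.737. None of the 7 was a DEG, that is, changed with a fold of 2 or more in either direction, while 6.64% of all genes were. Here a gene is called changed when the adjusted p of edgeR's quasi-likelihood F test, corrected by Benjamini-Hochberg over all 18444 genes, is under 0.05. By that rule 25.4% of all genes changed between SAH 1d and sham and 10.5% were lower, while 2 of the 7 genes (28.6%) were lower and 0 were higher.

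Hmgcs1 lay between 459.7 and 663 CPM in sham, with a median of 484 CPM. In SAH 1d it lay between 274 and 569 CPM with a median of 307 CPM. The highest SAH 1d library was SAH 1d-3, and the other 5 stayed at or under 401 CPM, below every sham library. The log2 fold change was −0.56 ± 0.18 (SE), with an adjusted p of 0.0335 in edgeR.

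Srebf2 lay between 129 and 175.5 CPM in sham (median 147 CPM). In SAH 1d it lay between 90.7 and 150.3 CPM (median 97.1 CPM), again with SAH 1d-3 on top and the other 5 at or under 122 CPM. The log2 fold change was −0.44 ± 0.13 (SE), with an adjusted p of 0.0265 in edgeR. For both genes the 5 SAH 1d libraries other than SAH 1d-3 were below every sham library.

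Fdft1 showed 1 library apart from 5 that were close together. It lay between 118 and 160.2 CPM in sham (median 138 CPM) and between 81.4 and 91.3 CPM in 5 libraries of SAH 1d, with 209.8 CPM in SAH 1d-3. The log2 fold change over all 12 libraries was −0.36 ± 0.22 (SE), with an adjusted p of 0.242 in edgeR.

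Insig1 was also far higher in SAH 1d-3 than in the other 5 libraries of its group, which were more spread than for Fdft1. In sham it lay between 112 and 135 CPM (median 120.4 CPM), in 5 libraries of SAH 1d between 73.95 and 118 CPM, and in SAH 1d-3 at 244 CPM. The log2 fold change was −0.11 ± 0.27 (SE, adjusted p = 0.802 in edgeR). The SAH 1d and sham libraries overlapped through SAH 1d-3 and SAH 1d-5.

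Sqle lay between 103 and 144 CPM in sham (median 114 CPM) and between 74.3 and 197 CPM in SAH 1d (median 101 CPM). Its log2 fold change was −0.06 ± 0.20 (SE, adjusted p = 0.844 in edgeR). Idi1, the least abundant of the 7, lay between 43.0 and 79.4 CPM in sham (median 54.0 CPM) and between 28.4 and 158 CPM in SAH 1d (median 42.1 CPM). Its log2 fold change was 0.15 ± 0.36 (SE, adjusted p = 0.794 in edgeR), and the positive sign rests on SAH 1d-3, without which it was −0.41.

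Cyp51 stayed nearest to sham. It lay between 243 and 366 CPM in sham (median 259 CPM) and between 233 and 409 CPM in SAH 1d (median 256 CPM). Its log2 fold change was 0.04 ± 0.15 (SE, adjusted p = 0.861 in edgeR). The groups overlapped almost wholly, and the sham library sham-1 was itself far above the other sham libraries, which reached 264 CPM.

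**Figure D1:**
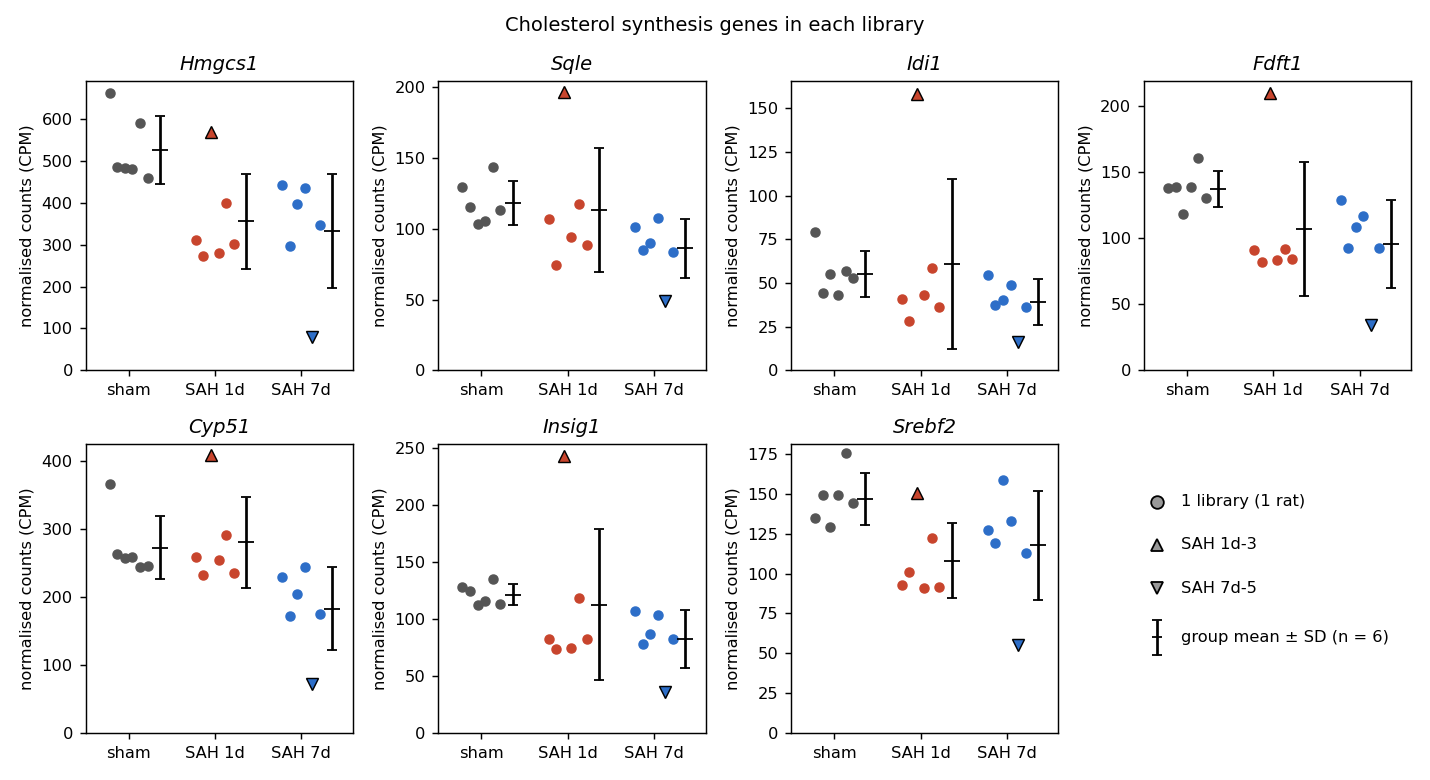
Level of each of the 7 genes in the 18 libraries, as TMM-normalised CPM on an axis from 0, with points for single libraries and bars for the group mean ± SD (n = 6). SAH 1d-3 (upward triangle) tops its group and SAH 7d-5 (downward triangle) is lowest of its group in every panel, from 150.3 CPM for Srebf2 to 569 CPM for Hmgcs1 in SAH 1d-3.

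Without SAH 1d-3, 4 of the 7 genes fell at 1 day, namely Hmgcs1, Fdft1, Srebf2 and Insig1, against 13.0% of all genes called lower in the same fit. SAH 1d-3 was the highest of its group for each of the 7, so leaving it out lowers their SAH 1d level by construction. It held that place for 33.1% of all genes, so the shares over all genes are no like comparison. Fdft1 then fell by 0.67 ± 0.07 on the log2 scale (SE, adjusted p = 4.84e-05 in edgeR). Hmgcs1 fell by 0.75 ± 0.12 (SE, adjusted p = 0.000678 in edgeR), Srebf2 by 0.56 ± 0.10 (SE, adjusted p = 0.00109 in edgeR) and Insig1 by 0.49 ± 0.11 (SE, adjusted p = 0.00646 in edgeR). Idi1 with −0.41 (adjusted p = 0.110 in edgeR) and Sqle with −0.30 (adjusted p = 0.0785 in edgeR) missed the threshold, and Cyp51 was at −0.10 (adjusted p = 0.518 in edgeR). Hmgcs1, Fdft1 and Srebf2 were below every sham library in each of the other 5 SAH 1d libraries, an order that 6.52% of all genes showed.

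The calls of Hmgcs1 and Srebf2 over all 12 libraries also depended on single libraries other than SAH 1d-3. Hmgcs1 missed the threshold without sham-1, sham-5, SAH 1d-1, SAH 1d-2, SAH 1d-4 or SAH 1d-6, with log2 fold changes of −0.53 to −0.49 and adjusted p-values of 0.0637 to 0.0690 in edgeR. Srebf2 missed it without sham-5, SAH 1d-1, SAH 1d-2, SAH 1d-4 or SAH 1d-6, with −0.42 to −0.38 and adjusted p-values of 0.0515 to 0.0618 in edgeR. Both kept a negative sign in each of these fits.

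How far SAH 1d-3 departed differed by gene. Relative to the sham mean, Idi1 was 2.87 times as high in it and Srebf2 1.02 times, with a median of 1.53 over the 7 genes, while the medians of the other SAH 1d libraries were 0.609 to 0.974. Over all genes tested the median ratio in SAH 1d-3 was 0.976. The summed level of 4 monocyte and macrophage markers was 494.6 CPM in SAH 1d-3 and 80.4 to 117.6 CPM in the other 5, that of 4 endothelial markers 232 CPM against 114 to 133 CPM, and that of 5 neutrophil markers 58.2 CPM against 8.44 to 14.2 CPM. The summed level of 6 neuron markers was lowest in SAH 1d-3, with 4895.4 CPM against 5179.5 to 6259.2 CPM in the other 5. The part of these cells in the levels of the 7 genes was not tested.

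Neuron markers were also lower at 1 day in the whole group. All 6 markers (Rbfox3, Snap25, Syt1, Map2, Slc17a7 and Gad1) fell, with a median log2 fold change of −0.53 beside −0.11 for the 7 genes. The sum of the markers lay between 4895.4 and 6259.2 CPM in SAH 1d and between 6557.4 and 9640.8 CPM in sham. Without SAH 1d-3 all 6 still fell, with a median of −0.43 beside −0.49 for the 7 genes, which leaving it out lowers by construction. None of 6 oligodendrocyte markers changed in either fit, and 0 had an unadjusted p under 0.05 in edgeR over all 12 libraries, with sums of 8211.8 to 18585.8 CPM in sham and 11743.3 to 17107.2 CPM in SAH 1d. Of 6 astrocyte markers 1 was higher and 1 lower in either fit. Over all 12 libraries 0 of 4 markers of oligodendrocyte precursors and 0 of 4 of endothelial cells changed, 1 of 5 of microglia was lower, and 2 of 4 of monocytes and macrophages, 2 of 2 tested of neutrophils, 1 of 4 of meningeal fibroblasts and 1 of 3 of the choroid plexus were higher. Without SAH 1d-3, the fit in which 4 of the 7 genes fell, 3 of 5 microglia markers (Aif1, Csf1r and Cx3cr1) were higher and 1 (P2ry12) lower, 3 of 3 choroid plexus markers were higher, 1 of 2 tested of neutrophils was higher, and the counts of the other lists were as over all 12 libraries. The part of a change in cell makeup in the fall of these genes in either fit was not tested.

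**Figure D2:**
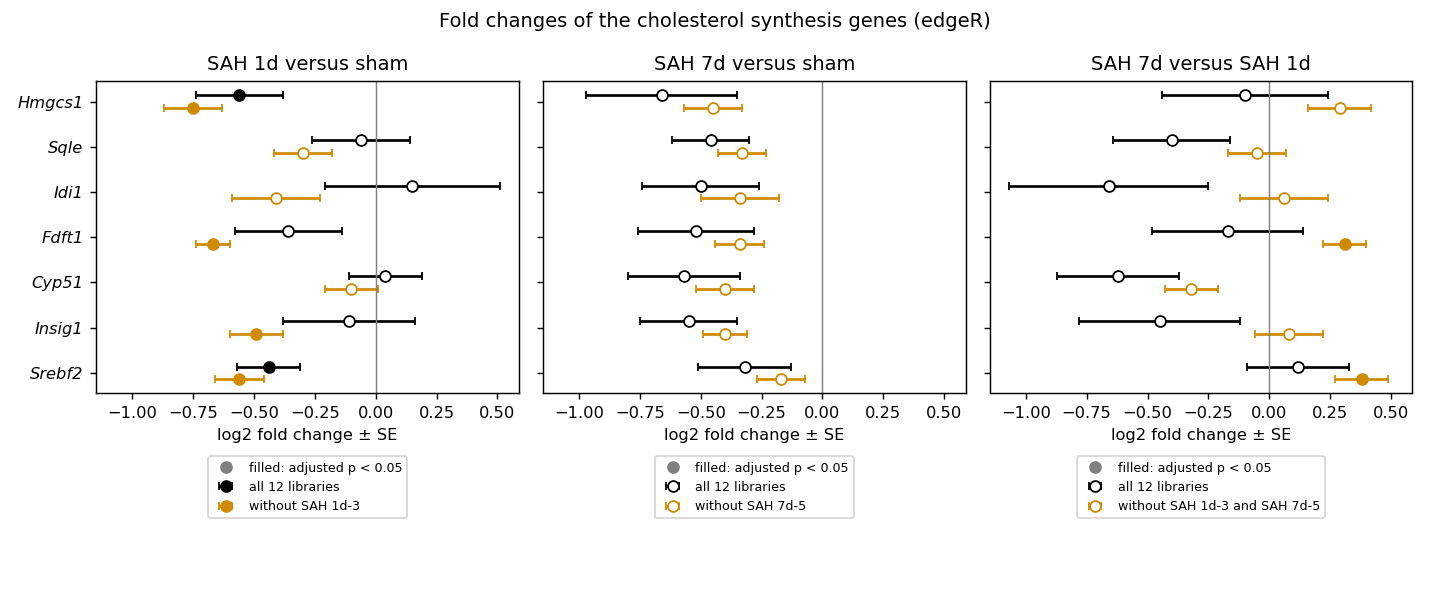
Log2 fold change of the 7 genes with its SE, from edgeR, for each comparison with all 12 libraries (black) and without the libraries that stood apart (orange), with filled points where the adjusted p is under 0.05. As SAH 1d-3 is the highest of its group for every gene, leaving it out moves the values at 1 day left by construction. They then run from −0.10 for Cyp51 to −0.75 for Hmgcs1.

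The genes did not keep their proportions at 1 day. To compare them within a library, where scaling and depth cancel, the ratio of counts was formed for each of the 21 pairs of the 7 genes. This measure was chosen after the values were seen. In each comparison a two-sided exact permutation test over the libraries was run on the log2 ratio, which gives 63 tests, and the p-values were adjusted over those 63 and not over other gene pairs.

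The Hmgcs1 to Cyp51 ratio of counts was 1.81 to 2.43 in sham and 1.10 to 1.39 in SAH 1d, with no overlap and with SAH 1d-3, at 1.39, the highest of its group by a small margin over the next at 1.37. The mean log2 ratio was 0.63 lower in SAH 1d than in sham, and the exact permutation test gave p = 0.00216, the smallest that 6 against 6 libraries can give (adjusted p = 0.0341). Hmgcs1 fell in the same way against Sqle, by 0.47, and against Insig1, by 0.35, with p = 0.00216 in the exact permutation test for both (adjusted p = 0.0341). Leaving out any single library kept the difference between −0.66 and −0.56 for Cyp51, between −0.51 and −0.43 for Sqle and between −0.38 and −0.24 for Insig1, the last being −0.24 without SAH 1d-3.

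At 7 days the Hmgcs1 to Cyp51 ratio of counts was 1.73 to 1.98 in 5 libraries, near the range of sham, and 1.08 in SAH 7d-5. The mean log2 ratio differed from SAH 1d by 0.45, with p = 0.0173 in the exact permutation test (adjusted p = 0.0909). The Cyp51 to Srebf2 ratio of counts was 2.31 to 2.80 in SAH 1d and 1.29 to 1.83 in SAH 7d, without overlap, and SAH 7d-5 with 1.32 was within the range of its group. The mean log2 ratio was 0.76 lower at 7 days than at 1 day (exact permutation p = 0.00216, adjusted p = 0.0341), and between 0.71 and 0.81 lower with any single library left out. In sham this ratio was 1.39 to 1.997 in 5 libraries and 2.72 in sham-1. No pair passed the threshold between SAH 7d and sham.

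**Figure D3:**
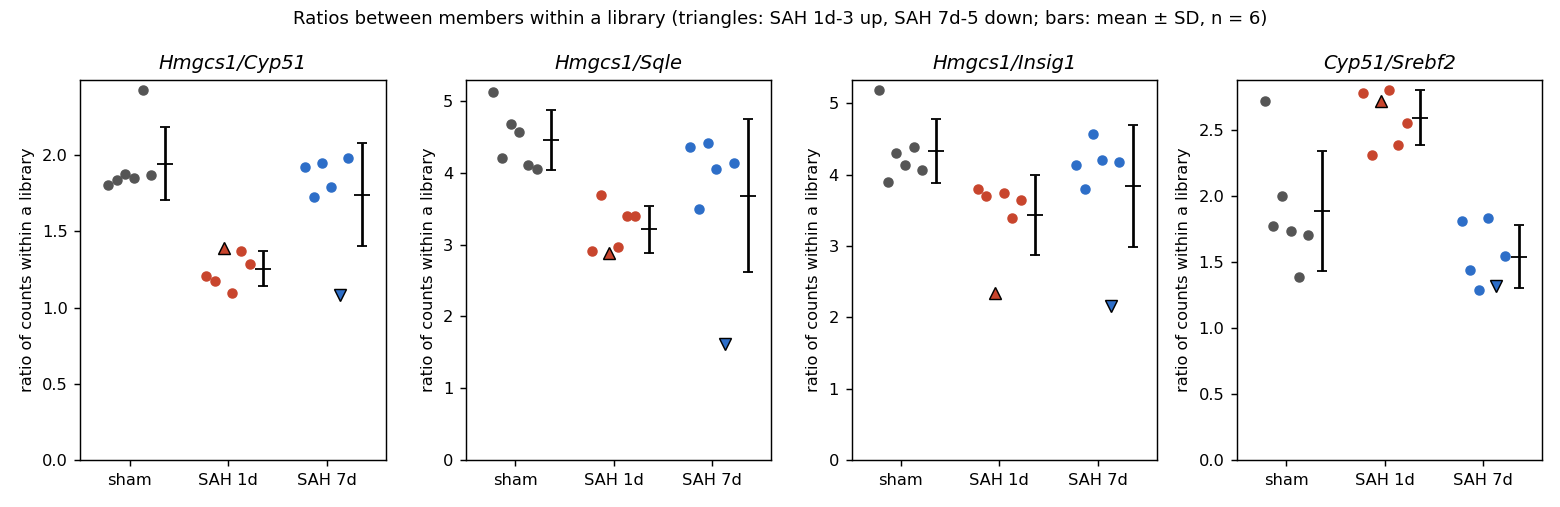
Ratio of the counts of 2 genes within each library, on axes from 0, for the 4 pairs that passed the adjusted threshold in a comparison, with the group mean ± SD (n = 6). The Hmgcs1 to Cyp51 ratio is at or under 1.39 in all SAH 1d libraries and at or above 1.81 in all sham libraries, and SAH 1d-3 (upward triangle), high for both genes, lies at 1.39.

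At 7 days the question was whether the levels had returned to those of sham. None of the 7 genes changed between SAH 7d and sham, and 0 of all 18444 genes did with edgeR, so the percentage called was 0. At an unadjusted p under 0.05 edgeR gave 2842 genes, and with DESeq2 459 genes passed an adjusted p under 0.05. The fitted log2 fold changes were negative for 7 of 7 genes, with a median of −0.52 beside −0.004 over all genes. Their adjusted p-values were 0.254 to 0.414 in edgeR. At an unadjusted p under 0.05 edgeR gave 4 of the 7, against 15.4% of all genes, and neither DESeq2 nor voom called any of the 7.

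Hmgcs1 lay between 78.6 and 443 CPM in SAH 7d (median 372 CPM), and every library was below the lowest sham library at 459.7 CPM. Insig1 lay between 36.4 and 107 CPM (median 85.0 CPM), also below every sham library, the lowest of which had 112 CPM. These were 2 of the 7 genes in an order that 0.428% of all genes showed. Leaving out SAH 7d-5 cannot undo such an order. The same 2 of the 7 showed it then, beside 0.520% of all genes. Their log2 fold changes were −0.66 ± 0.31 (SE, adjusted p = 0.332 in edgeR) and −0.55 ± 0.20 (SE, adjusted p = 0.258 in edgeR).

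The other 5 genes overlapped with sham. Cyp51 lay between 72.6 and 244 CPM in SAH 7d (median 189 CPM), with 1 library reaching the lowest sham value of 243 CPM. Sqle lay between 48.7 and 107.5 CPM (median 87.5 CPM) and Fdft1 between 34.4 and 129 CPM (median 100.3 CPM). Idi1 lay between 16.1 and 54.6 CPM (median 38.8 CPM). Srebf2 lay between 55.0 and 159 CPM (median 123 CPM) and was the gene nearest to sham, with a log2 fold change of −0.32 ± 0.19 (SE, adjusted p = 0.414 in edgeR).

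SAH 7d-5 held the lowest value of its group for each gene, at 0.149 of the sham mean for Hmgcs1 and 0.411 for Sqle, with a median of 0.292. The medians of the other SAH 7d libraries were 0.673 to 0.885. Without it the log2 fold changes against sham shrank to −0.45 ± 0.12 for Hmgcs1, −0.40 ± 0.09 for Insig1, −0.40 ± 0.12 for Cyp51 and −0.17 ± 0.10 for Srebf2 (SE), with adjusted p-values of 0.118 to 0.511 over the 7 genes in edgeR. The median over the 7 genes was then −0.34, and 0 of all 18444 genes passed the adjusted threshold in this fit. Leaving out the lowest library of each gene makes these falls smaller by construction.

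In SAH 7d-5 the markers of other cells were far from those of the other rats. The summed level of 4 monocyte and macrophage markers was 8704.1 CPM against 88.9 to 275.6 CPM in the other 5, that of 4 meningeal fibroblast markers 3272.1 CPM against 119 to 228 CPM, that of 5 microglia markers 1743.3 CPM against 205 to 682 CPM, and that of 6 neuron markers 2480.7 CPM against 6795.2 to 8856.8 CPM. The part of these cells in the low levels of the 7 genes was not tested.

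Between SAH 7d and SAH 1d none of the 7 genes changed, while 252 of all genes (1.37%) did, and 2713 genes had an unadjusted p under 0.05 in edgeR. Of the 7, only Cyp51 had an unadjusted p under 0.05 in edgeR, DESeq2 called 0, and limma with voom sample weights called 1, Srebf2. Of all genes, 14.7% had an unadjusted p under 0.05 in edgeR, DESeq2 called 5.49% and voom 14.7%. The log2 fold changes ran from −0.66 ± 0.41 for Idi1 to 0.12 ± 0.21 for Srebf2 (SE, adjusted p = 0.494 and 0.850 in edgeR). With both libraries that stood apart left out, 6.13% of all genes were called higher at 7 days. They were the highest SAH 1d and the lowest SAH 7d library for each of the 7 genes. Leaving them out thus raises the 7 genes at 7 days against 1 day by construction, and the shares over all genes are no like comparison. Srebf2 was then higher at 7 days by 0.38 ± 0.11 (SE, adjusted p = 0.0354 in edgeR) and Fdft1 by 0.31 ± 0.09 (SE, adjusted p = 0.0467 in edgeR), and Cyp51 was at −0.32 ± 0.11 (SE, adjusted p = 0.0719 in edgeR). Fdft1 then did not overlap between the groups, an order in which 5.06% of all genes were higher at 7 days.

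The other genes of the route were read from 5 lists of 26 genes that include the 7. Of these, 25 were tested and Lbr is not analysed here. Between SAH 1d and sham 6 of the 25 were lower and 0 higher, or 24.0% beside 25.4% of all genes. They were Hmgcs1, Srebf2, Fdps, Mvk, Tm7sf2 and Scap. The median log2 fold change over the 25 was −0.12, beside 0.009 over all genes.

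In the mevalonate arm 3 of 7 were lower. Mvk, which phosphorylates mevalonate, fell by 0.40 ± 0.11 on the log2 scale (SE, adjusted p = 0.0155 in edgeR) and Fdps, which makes farnesyl diphosphate, by 0.34 ± 0.09 (SE, adjusted p = 0.0130 in edgeR). Of the 3 genes of the squalene and lanosterol steps, none changed in edgeR or DESeq2, and 0 had an unadjusted p under 0.05 in edgeR, while voom called 1, Fdft1. Over all genes voom called 35.3%.

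From lanosterol on 1 of 8 tested genes was lower, Tm7sf2, a sterol reductase, with a fall of 0.58 ± 0.14 (SE, adjusted p = 0.00967 in edgeR). It was below every sham library in all 6 SAH 1d libraries, SAH 1d-3 included, as were 5.41% of all genes. Among the control genes 2 of 6 were lower, Srebf2 and Scap, whose protein escorts SREBP2, with a fall of 0.34 ± 0.08 for Scap (SE, adjusted p = 0.00993 in edgeR). Insig2, the sibling anchor of Insig1, was at −0.11 ± 0.11 (SE, adjusted p = 0.517 in edgeR).

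Without SAH 1d-3, 13 of the 25 were lower at 1 day and 0 higher, or 52.0% beside 28.5% of all genes, 13.0% being lower. SAH 1d-3 was the highest of its group for 17 of the 25 and for 33.1% of all genes. Leaving it out thus lowers more of the 25 by construction, and these shares are no like comparison. Over all 12 libraries the share was 24.0% beside 25.4%. The median log2 fold change was −0.37, beside −0.002 over all genes. The counts were 5 of 7 in the mevalonate arm, 1 of 3 at the squalene and lanosterol steps, 3 of 8 after lanosterol and 3 of 6 among the control genes. Stard4, a sterol carrier and the 1 tested gene listed as another target of SREBP2, fell by 0.60 ± 0.13 on the log2 scale (SE, adjusted p = 0.00460 in edgeR), while over all 12 libraries it was at −0.29 ± 0.24 (SE, adjusted p = 0.403 in edgeR).

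SAH 1d-3 was the highest of its group for 17 of the 25 genes. The exceptions were Mvk, Pmvk, Tm7sf2, Dhcr7, Scap, Insig2, Mbtps1 and Mbtps2, which include 4 of the 6 control genes. Against the median of the other SAH 1d libraries it was 3.11 times as high for Msmo1 and 2.93 times for Hsd17b7, but 0.790 for Scap and 0.648 for Mbtps1, the protease that makes the first cut in SREBP2. SAH 7d-5 was the lowest of its group for 20 of the 25, with Msmo1 at 0.346 of the median of the other libraries, and the exceptions were Mvk, Mvd, Ebp, Insig2 and Mbtps1. Between SAH 7d and sham 0 of the 25 changed in edgeR, with a median of −0.39, or −0.31 without SAH 7d-5. At an unadjusted p under 0.05 edgeR gave 12 of the 25, beside 15.4% of all genes. After adjustment DESeq2 called 1 of the 25, Dhcr7, the last reductase of the route, beside 2.49% of all genes, and voom called 0.

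**Figure D4:**
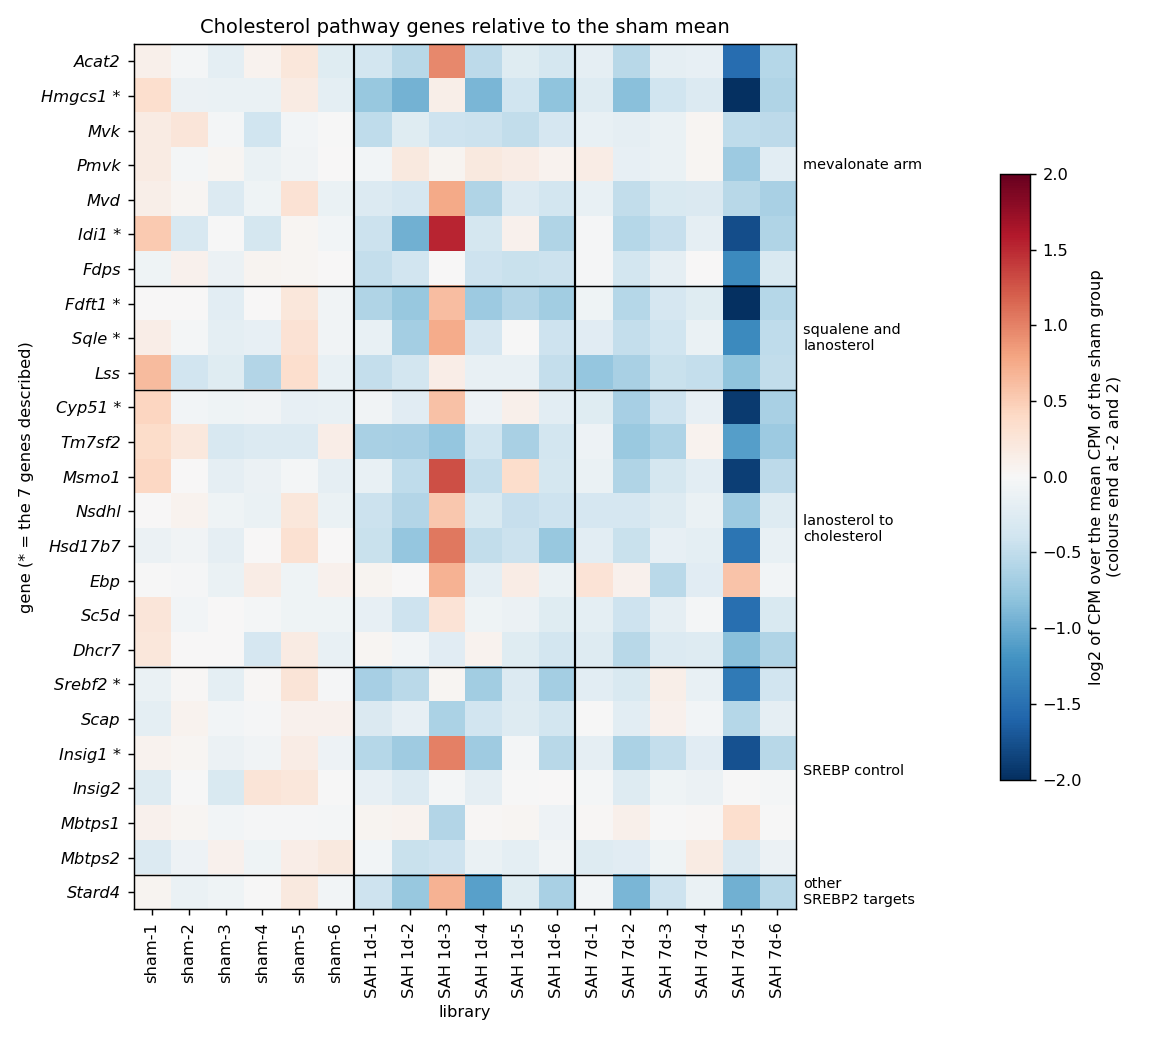
Log2 of the CPM of 25 cholesterol pathway genes (rows, grouped by step, the 7 genes starred) over the mean CPM of the sham group, for each library (columns, groups split by black lines), with colours ending at −2 and 2. SAH 1d-3 holds the highest value of its group for 17 of the 25 genes and SAH 7d-5 the lowest of its group for 20, with Hmgcs1 at 0.149 of the sham mean.

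Genes that handle sterols in other ways moved in both directions. Of 6 genes of sterol removal and of targets of the oxysterol receptor LXR, 3 were higher and 1 lower in SAH 1d than in sham, or 66.7% beside 25.4% of all genes. Abca1, which exports cholesterol, rose by 0.59 ± 0.14 on the log2 scale (SE, adjusted p = 0.00950 in edgeR). Mylip, a ubiquitin ligase, rose by 0.57 ± 0.08 (SE, adjusted p = 0.000640 in edgeR) and Soat1, which esterifies cholesterol, by 0.93 ± 0.25 (SE, adjusted p = 0.0165 in edgeR). Soat1 was highest in SAH 1d-3, with 32.6 CPM, and rose by 0.58 without it. Cyp46a1, the neuronal enzyme that turns cholesterol into 24-hydroxycholesterol, fell by 0.58 ± 0.13 (SE, adjusted p = 0.00708 in edgeR), as did the 6 neuron markers.

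At 7 days none of these 6 genes changed against sham in edgeR, DESeq2 or voom. An unadjusted p under 0.05 in edgeR was found for 4 of the 6, beside 15.4% of all genes. Abca1 was at 1041.2 CPM in SAH 7d-5 and at 37.0 to 114 CPM in the other 5, and Apoe, which carries brain cholesterol, at 22167.6 CPM against 2178.5 to 3873.6 CPM. The library with the lowest cholesterol synthesis genes thus had the highest values of both, along with the macrophage markers given above, whose part was not tested. Of 8 genes of fatty acid synthesis under SREBP1, 0 changed at 1 day over all libraries in edgeR or DESeq2, 3 did with voom, and 3 had an unadjusted p under 0.05 in edgeR. Over all genes voom called 35.3%, and 38.8% had an unadjusted p under 0.05 in edgeR. In edgeR 4 of the 8 were lower without SAH 1d-3 (Acaca, Acly, Fasn and Scd, from −0.42 to −0.23), beside 13.0% of all genes. The summed level of the 8 was highest of its group in SAH 1d-3, with 823 CPM against 701 to 786 CPM in the other 5. Leaving it out lowers that sum by construction, and these shares are no like comparison.

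Across the 18 libraries the 7 genes were positively correlated in every pair. The 21 Pearson correlations of their log2 CPM ran from 0.66 to 0.96 with a median of 0.87, and from 0.09 to 0.94 with a median of 0.76 over the 16 libraries left when the outlying pair of libraries, SAH 1d-3 and SAH 7d-5, was dropped. Cyp51 and Srebf2 were the lowest pair both times. The points share the scaling of their libraries, and no pairs of other genes are given beside them, so the values are a description.

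Among the 6 genes most like the 7, by the correlation of log2 CPM with their mean standardised profile over 18 libraries, were Acat2, Ppp2cb, Msmo1 and Pde4b. Pearson's r was 0.967 for Acat2, a thiolase, and 0.943 for Msmo1, a sterol demethylase, both of which belong to the route. Ppp2cb, a catalytic subunit of protein phosphatase 2A, with 0.943 and Pde4b, a cAMP phosphodiesterase, with 0.939 belong to none of the lists. Over the same 16 libraries the values were 0.93 for Acat2, 0.81 for Msmo1, 0.76 for Ppp2cb and 0.75 for Pde4b.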

How the data were processed

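RNA from the cortex of 18 rats was sequenced from NEBNext Ultra libraries. According to the methods, the authors aligned clean reads to the Rnor_6.0 rat genome. The submitters' processing notes name fastp, HISAT2 and DESeq2 1.16.1, and also list a mouse build, mm9, that does not go with the rat gene IDs. The counting program is not given in the sources used here. The counts as deposited are raw, 1 whole number for each gene in each library, and the deposited FPKM values were made by the authors per transcript length and mapped reads. Replicates were not pooled. Libraries were assigned by the descriptions, which equal the column names. Library numbers in SAH 1d follow the columns and may differ from the study's own.

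Counts were tested with edgeR 4.0.16 in R 4.3.3 (filterByExpr over 18 libraries, TMM, two-sided quasi-likelihood F test, 12 libraries per comparison, no covariates). The SE is the log2 fold change divided by the square root of F. DESeq2 1.42.0, limma 3.58.1 with voom sample weights, and limma on log2(FPKM + 1) and log2(FPKM + 0.1) were alternatives, with each library left out in turn. Log2 CPM used a prior count of 2. Ratios were tested in Python 3.11.15 with scipy 1.17.1 over 924 splits. The fitting was tested on simulated data. No libraries were duplicates. Where the libraries of a group are separate rats, p-values measure the spread between these rats.

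The members and gene lists were chosen with earlier results of these data known. The genes named are the 7 members, the listed genes called in a comparison, Scap, Insig2, Abca1 and Cyp46a1 whatever their values, and the 6 genes most like the members. Some genes of these lists and of this rule are not reported here and were left out of the counts over the lists. Other genes were named after their values were seen. Marker lists were neuron, astrocyte, oligodendrocyte, oligodendrocyte precursor, microglia, endothelial cell, monocyte and macrophage, neutrophil, meningeal fibroblast and choroid plexus.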

Additional observations from a re-analysis of the deposited data

Results flagged for a closer look

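In 6 of 21 groups (7 genes in 3 groups of 6 libraries) the highest library was farther from its nearest neighbour, relative to the range, than Dixon's critical value, where chance flags about 1 group in 20. The genes share their libraries, so these groups are not independent. In SAH 1d-3, Sqle was at 197 CPM (nearest 117.69), Idi1 at 158 CPM (nearest 58.4), Fdft1 at 209.8 CPM (nearest 91.3), Cyp51 at 409 CPM (nearest 292) and Insig1 at 244 CPM (nearest 118). In sham-1, Cyp51 was at 366 CPM and the nearest sham library at 264 CPM. None was in SAH 7d-5, although it was the lowest of its group for 7 of 7 genes. The gaps were taken on CPM, where a low library stands out less than on the log2 scale.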

How the results depend on the processing

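For SAH 1d versus sham, the 2 genes called of the 7 became 4 with voom (Fdft1, Hmgcs1, Insig1 and Srebf2), 1 (Hmgcs1) on either FPKM scale and 0 with all 18 libraries in 1 fit, and 0 to 4 with a library left out (0 without sham-5, SAH 1d-1, SAH 1d-2, SAH 1d-4 or SAH 1d-6, 1 without sham-1, and 4 without SAH 1d-3). The 6 pathway genes became 13 with voom, 3 with all 18 libraries and 3 on either FPKM scale, and 4 to 13 with a library left out. Of all genes, voom called 35.3% in this comparison (16.4% lower), beside 25.4% (10.5% lower) in edgeR. For SAH 7d versus SAH 1d, 0 members became 1 with voom and 2 with both libraries that stood apart left out, and 0 pathway genes became 2 and 4. Of all genes, 1.37% were called in edgeR, 14.7% with voom and 13.6% without both libraries. For SAH 7d versus sham, DESeq2 called 1 pathway gene, beside 2.49% of all genes. Signs turned at 1 day for Idi1 (−0.31 with voom, −0.11 with the replicate block), Cyp51 (−0.04 with voom) and Insig2 (0.02 on both FPKM scales), and between SAH 7d and SAH 1d with voom for Hmgcs1 (0.26), Idi1 (0.05), Fdft1 (0.26) and Insig1 (0.07), and without both libraries (0.29, 0.06, 0.31 and 0.08). With a library left out, log2 fold changes at 1 day ran from −0.30 to 0.03 for Sqle, −0.41 to 0.30 for Idi1 and −0.10 to 0.14 for Cyp51, and between SAH 7d and SAH 1d from −0.20 to 0.10 for Hmgcs1 and −0.28 to 0.14 for Fdft1. The cause was not tested. Using the size factors of DESeq2 in edgeR, testing every gene, or asking for at least 10 counts in each library moved no count of calls by over 1.5 times. Ratios taken from FPKM gave the same number of pairs. These alternatives for the ratios, like the ratios, were chosen after seeing the data.

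Same-numbered libraries correlated at −0.252 to 0.197 in their deviations from the group means, and 0, 2 and 3 of 12 libraries were closest to their own number in the 3 comparisons. The numbers were not taken as pairs. With the replicate block the counts at 1 day were 2 members and 6 pathway genes, and 0 in the other comparisons.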

Other observations

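Choroid plexus markers (Ttr, Kl and Folr1) summed to 971 CPM in SAH 1d-6 and 669 CPM in the next SAH 1d library, against 1.72 to 61.2 CPM in sham and 1.67 to 35.5 CPM in SAH 7d. These libraries did not stand apart for the 7 genes, with median ratios to the sham mean of 0.659 in SAH 1d-6 and 0.617 in SAH 1d-4.

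In SAH 7d-5, Srebf1, which drives fatty acid synthesis, was at 224 CPM and Srebf2 at 55.0 CPM, whereas the other 5 libraries of the group held 42.5 to 69.4 CPM of Srebf1 and 113 to 159 CPM of Srebf2. In SAH 1d-3 Srebf1 was at 23.6 CPM, against 35.3 to 56.2 CPM in the other 5, and Srebf2 at 150.3 CPM.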
